A study of Mus musculus with 24 samples.

Results

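Liver RNA of mice gavaged with ethanol alone was compared with that of mice gavaged with vehicle. The comparison rests on 12 of the 24 RNA sequencing libraries of the study, the 6 whose titles name ethanol at 1 g/kg body weight and the 6 whose titles name 0.5% CMC, the vehicle. Both groups were male C57BL/6 mice of 20 to 30 g, and the labels name no transgene, mutation or age for either. The other 12 libraries came from mice given di(2-ethylhexyl) phthalate (DEHP), a plasticiser, at 2500 mg/kg, 6 without and 6 with the same dose of ethanol (the combination). They entered the shared estimate of the spread and 1 comparison at the end. CMC is named in the vehicle titles alone, and if the ethanol group received none, carrier and treatment cannot be told apart. The labels give neither the duration of treatment nor the hour of collection nor the feeding state, and each group is said to hold 12 mice but has 6 libraries, with no word on pooling. The p-values thus reflect the spread among libraries, part of which may be technical.

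Ethanol is oxidised in hepatocytes to acetaldehyde by alcohol dehydrogenase and by the microsomal enzyme CYP2E1, and acetaldehyde to acetate by the mitochondrial enzyme ALDH2. Liver genes are also under strong daily control. BMAL1 (gene Arntl), paired with CLOCK or NPAS2, binds E-box sequences and drives the Per, Cry, Nr1d1, Nr1d2, Dbp and Tef genes. PER and CRY proteins shut this drive off, while the REV-ERB receptors (Nr1d1, Nr1d2) repress and the ROR receptors activate Arntl, Npas2 and Nfil3, so that in liver the Arntl and Npas2 transcripts peak at the opposite phase to Dbp and Nr1d1. Feeding, insulin and glucocorticoids act on many of the same metabolic genes.

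The 12 libraries held between 7510462 and 7912089 expected counts (estimated reads per gene). Levels are given as FPKM, reads scaled to transcript length and library size, and differences as log2 changes with ethanol relative to vehicle, with their standard error (SE), estimated in edgeR from the counts. A gene was called at a Benjamini-Hochberg adjusted p below 0.05 over 10697 genes, those with 1 FPKM or more in 6 or more of all 24 libraries. Vehicle replicate 1 stood apart. Its summed FPKM over 20 skeletal muscle markers was 8824, against 10.1 to 14.9 in the other 5 vehicle libraries and 6.04 to 9.6 with ethanol. Of the 4 muscle markers tested all 4 were called lower with ethanol, and 0 of 4 without that library. Neb, 1 of the 4, still did not overlap, at 2.53 to 3.79 FPKM in the other vehicle libraries and 0.76 to 1.69 FPKM with ethanol. It kept its call when combination replicate 6, which also held muscle transcripts, was left out as well. The hepatocyte markers of vehicle replicate 1 summed to 60228 FPKM, against 65578 to 82614 in the other vehicle libraries. Results were therefore also computed without it, and its removal is given where a list's counts or a named gene's call changed. The change also followed gene length. The median log2 change was 0.13 over the shortest 20% of the genes (up to 1516 bases) and -0.2 over the longest 20% (from 4531 bases), and it was 0.12 and -0.19 without vehicle replicate 1.

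Of the 10697 genes tested, 3079 were called (28.8%), 1524 higher with ethanol (14.2%) and 1555 lower (14.5%). Most changes were small, with a median size of 0.45 on the log2 scale. At least 2-fold changes, a log2 change of 1 or more, were held by 76 of the higher and 229 of the lower genes. The FPKM ranges of the groups did not overlap for 1140 genes (10.7%), of which 417 were higher (3.9%) and 723 lower (6.76%). Without vehicle replicate 1, 2450 of the 3079 genes were called again in the same direction, and 24.6% of all genes were called. The balance of higher and lower depended on scaling. Library totals without TMM factors gave 930 higher and 2061 lower, limma on log2(FPKM + 1) gave 1090 and 1780, and limma on log2(TPM + 1) gave 481 and 2764 while moving the median of all genes to -0.15. Of 44 gene lists for liver functions and cell types, the glucocorticoid targets had the highest share of members called lower and the autophagy list the highest share called higher among the lists with at least 12 tested members. Each list count below stands against these shares of all genes, 14.2% higher and 14.5% lower. Without vehicle replicate 1 they were 11.5% and 13.2%.

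**Figure D1:**
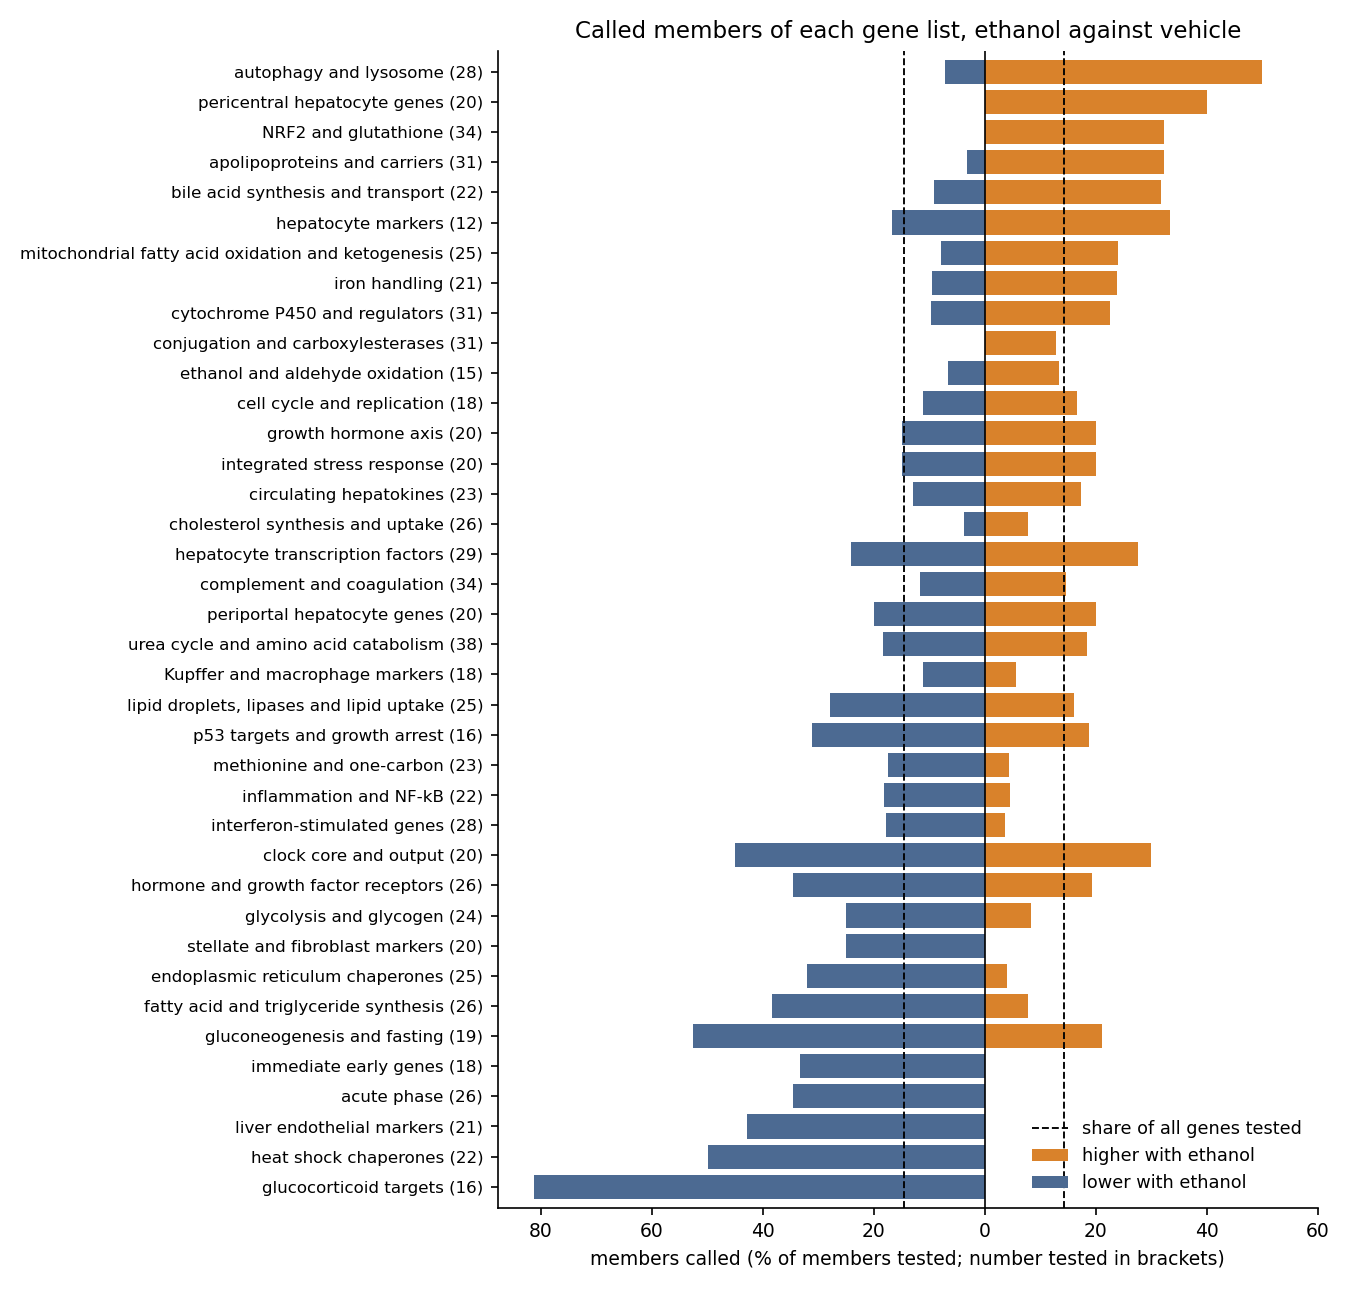
Share of tested members of each gene list called higher (right) or lower (left) with ethanol, in percent. The number tested is in brackets, lists with fewer than 12 tested members are left out, and dashed lines mark the share of all genes, 14.2% higher and 14.5% lower. Of 16 glucocorticoid targets 13 were lower and none higher, and of 28 autophagy genes 14 were higher and 2 lower.

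Clock genes held the largest rise and some of the largest falls. The hour of collection is not given for either group, and if it differed, time of day and ethanol cannot be told apart in any of these genes. The same limit, for hour and for feeding state, holds for all other genes described below. Of 20 clock genes tested, 6 rose and 9 fell, against background shares of 14.2% and 14.5%, and the same counts were found without vehicle replicate 1. The genes that rose were Dbp, Tef, Hlf, Nr1d1, Nr1d2 and Cry2, and among those that fell were Arntl, Npas2, Clock, Rora, Nfil3, Cry1 and Per1. FPKM ranges did not overlap for 14 of the 20, where 10.7% of all genes had no overlap. Because members moved both ways the list's median, -0.18, describes neither group.

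Promoters of 18 of the 23 clock genes listed were found in RefSeq's annotation of GRCm38.p6, as windows from 250 bases before to 50 after a start site. The palindrome CACGTG, the core E-box that the BMAL1 pairs recognise, was in 6 of their 26 windows (23.1%), those of Tef, Cry1, Per1, Ciart and Bhlhe41, and in 7.15% of all 32851 windows. The half-site AGGTCA of the ROR and REV-ERB receptors was in 5 of the 26 (19.2%) and in 16.3% of all windows. The D-box of the Dbp family, searched as TTATGTAA or TTACGTAA, was in 1 (3.85%), that of Per3, and in 1.06% of all. Both strands were searched. The windows of 4 clock genes are printed to show the motif, in capitals, beside genes that moved in opposite directions. Those of Tef (chr15:81802423-81802722, plus strand, the motif starting 127 bases before the start site), Cry1 (chr10:85185005-85185304, minus strand, 60 bases before) and Per1 (chr11:69098699-69098998, plus strand, 166 bases before) hold 1 match each. Tef and Per1 have 2 annotated start sites, and 1 is shown. The window of Dbp (chr7:45704997-45705296, plus strand) holds none. A match or its lack describes these letters alone.
Tef: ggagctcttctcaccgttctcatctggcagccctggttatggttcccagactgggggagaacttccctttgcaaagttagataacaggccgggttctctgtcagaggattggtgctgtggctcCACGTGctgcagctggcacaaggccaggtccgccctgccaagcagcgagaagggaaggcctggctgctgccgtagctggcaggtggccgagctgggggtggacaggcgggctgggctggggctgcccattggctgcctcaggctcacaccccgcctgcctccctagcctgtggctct
Cry1: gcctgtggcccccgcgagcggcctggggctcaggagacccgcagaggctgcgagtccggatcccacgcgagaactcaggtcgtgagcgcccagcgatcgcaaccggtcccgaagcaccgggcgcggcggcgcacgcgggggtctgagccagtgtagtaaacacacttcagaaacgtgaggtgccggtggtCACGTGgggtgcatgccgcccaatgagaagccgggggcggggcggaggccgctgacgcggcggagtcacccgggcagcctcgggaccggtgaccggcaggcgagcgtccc
Per1: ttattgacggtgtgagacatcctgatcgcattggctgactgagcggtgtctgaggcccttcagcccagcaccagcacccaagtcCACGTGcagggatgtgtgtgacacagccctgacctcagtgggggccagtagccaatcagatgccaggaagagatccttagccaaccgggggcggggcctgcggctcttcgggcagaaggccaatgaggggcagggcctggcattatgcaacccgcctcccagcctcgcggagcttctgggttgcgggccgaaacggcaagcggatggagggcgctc
Dbp: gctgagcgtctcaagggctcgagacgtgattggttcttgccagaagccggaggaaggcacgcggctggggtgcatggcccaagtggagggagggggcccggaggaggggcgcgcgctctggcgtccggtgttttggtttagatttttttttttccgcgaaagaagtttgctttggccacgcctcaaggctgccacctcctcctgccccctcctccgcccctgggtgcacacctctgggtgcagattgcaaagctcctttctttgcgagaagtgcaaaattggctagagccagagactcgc

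Among the output genes, Dbp, a transcription factor that carries the rhythm to metabolic genes (NCBI gene 13170), lay between 0.36 and 1.67 FPKM with vehicle (median 0.66) and between 16.6 and 77.3 FPKM with ethanol (median 46.3). The lowest ethanol library was thus far above the highest vehicle library. The log2 change was 6.06 ± 0.45 (adjusted p = 1.05e-09), the largest rise of the named genes. Tef, its relative, whose promoter holds the E-box above, ran from 5.43 to 8.82 FPKM with vehicle and from 18.5 to 34.4 FPKM with ethanol, with medians of 7.81 and 27.4 and no overlap (log2 change 1.97 ± 0.17). Hlf, the third of these related factors, overlapped between the groups, at 3.63 to 7.19 and 5.81 to 11.5 FPKM, and rose by 0.53 ± 0.13 (adjusted p = 0.00373). Nfil3, which competes with them for the same sites as a repressor, went the other way. It lay between 34.0 and 46.3 FPKM with vehicle (median 38.5) and between 12.2 and 25.2 FPKM with ethanol (median 15.1), a log2 change of -1.22 ± 0.14 without overlap.

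Both REV-ERB repressors rose. Nr1d1 (REV-ERBalpha) ran from 3.17 to 9.7 FPKM with vehicle, median 5.49, and from 42.9 to 64.7 FPKM with ethanol, median 59.4 (log2 change 3.32 ± 0.34, adjusted p = 1.5e-07). Nr1d2 (REV-ERBbeta) rose by 1.62 ± 0.25, from a median of 3.67 to 9.34 FPKM. Neither gene's groups overlapped. Thra, a thyroid hormone receptor gene, was also among the largest rises in counts (1.61 ± 0.14), but its annotated span (chromosome 11, 98740776 to 98769006) overlaps that of Nr1d1 (98767932 to 98775377). The deposited tables do not say whether strand was used, so reads of this stretch cannot be assigned with certainty, and the FPKM ranges of Thra overlapped, at 6.64 to 9.33 and 9.14 to 13.

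The activating arm was lower with ethanol. Arntl lay between 9.47 and 12.3 FPKM with vehicle (median 10.5) and between 1.16 and 6.31 FPKM with ethanol (median 3.11). All 6 ethanol libraries were below all vehicle libraries. Among themselves they split, with replicates 1 to 3 at 3.72 to 6.31 FPKM and replicates 4 to 6 at 1.16 to 2.5 FPKM. Dbp (16.6 to 33.4 and 59.1 to 77.3 FPKM) and Tef (18.5 to 23.5 and 31.3 to 34.4 FPKM) split between the same replicates. Nr1d1 did not (55.9 to 64.7 and 42.9 to 62.4 FPKM). The labels give no reason for this split, and its cause was not tested. The log2 change of Arntl was -1.62 ± 0.26 (adjusted p = 8.4e-05). Npas2 fell more, from a median of 3.87 FPKM (2.8 to 4.08) to 0.475 FPKM (0.07 to 0.73), a log2 change of -3.16 ± 0.32. Clock, its close relative, moved from a median of 5.25 to 3.38 FPKM (-0.64 ± 0.13). Rora, the gene of an activating receptor, also fell, from a median of 6.78 to 3.16 FPKM (-1.0 ± 0.12). None of these 4 genes overlapped between groups.

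The cryptochromes moved in opposite directions. Cry1 was at 7.42 to 11.3 FPKM with vehicle (median 8.11) and 2.64 to 4.95 FPKM with ethanol (median 3.51), a log2 change of -1.17 ± 0.16. Cry2 rose by 0.83 ± 0.11, from 4.69 to 7.23 FPKM with vehicle (median 6.11) to 9.37 to 11.1 FPKM with ethanol (median 10.6). The groups of both genes were separate. Among the period genes, Per1 overlapped, at 4.03 to 7.21 and 0.7 to 4.71 FPKM, with a log2 change of -0.85 ± 0.3 (adjusted p = 0.0333) that lost its call without any of 5 single libraries (vehicle 4 or 6, ethanol 1, 2 or 5). Per2 was not called (0.63 ± 0.28, adjusted p = 0.0892). Per3 was too low for the filter, yet its groups were separate, at 0.09 to 0.2 FPKM with vehicle and 0.59 to 2.11 FPKM with ethanol. Fitted without the filter it rose by 3.12 ± 0.34 (adjusted p = 6.93e-07). Bhlhe41, a repressor of E-box genes, was also called in that fit (2.46 ± 0.59, adjusted p = 0.00496). Its groups overlapped and every library was under 1 FPKM, at 0.05 to 0.23 with vehicle and 0.17 to 0.91 with ethanol. Ciart, another repressor, did not pass (1.61 ± 0.6, adjusted p = 0.0626). The casein kinase genes Csnk1d (-0.16, adjusted p = 0.0625) and Csnk1e (-0.21, adjusted p = 0.376), Bhlhe40 (-0.04) and the deubiquitinase gene Usp2 (0.26) were not called.

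**Figure D2:**
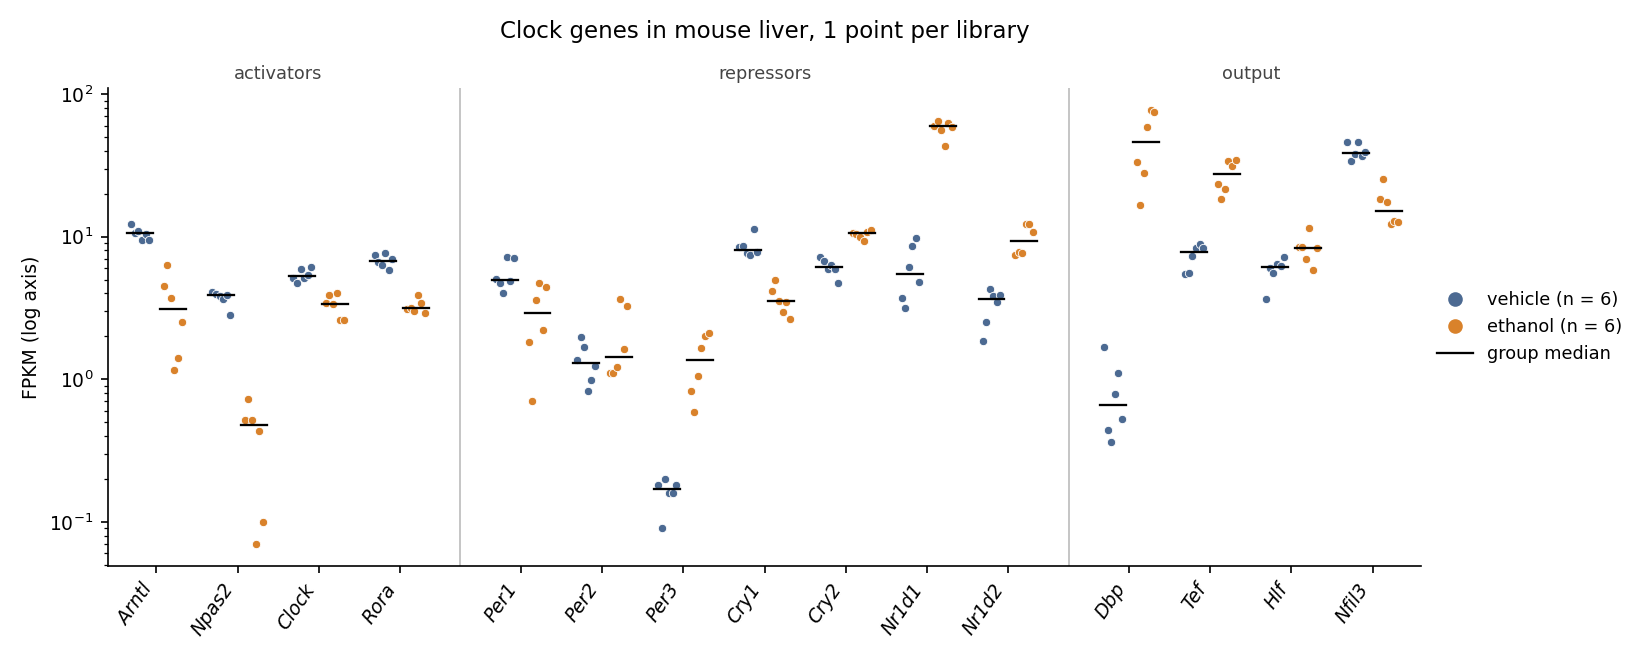
FPKM of 15 clock genes on a log axis, 1 point for each of the 6 vehicle (blue) and 6 ethanol (orange) libraries, with group medians as black lines. The groups are apart for Arntl, Npas2, Clock, Rora, Per3, Cry1, Cry2, Nr1d1, Nr1d2, Dbp, Tef and Nfil3, and overlap for Per1, Per2 and Hlf.

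Cdkn1a, which encodes the cell cycle inhibitor p21, had the largest fall among genes called both with and without vehicle replicate 1. It lay between 43.2 and 83.7 FPKM with vehicle, with a median of 50.0, and between 1.18 and 2.34 FPKM with ethanol, with a median of 1.28. The groups were far apart, and the log2 change was -5.15 ± 0.21 (adjusted p = 4.76e-15). Trp53inp1, another p53 target, went from a median of 24.4 FPKM (18.1 to 29.1) to 4.58 FPKM (3.37 to 6.08), a log2 change of -2.3 ± 0.13. The list did not follow as a whole. Of 16 p53 targets tested, Cdkn1a and Trp53inp1 included, 5 fell and 3 rose (median -0.33, against -0.01 over all genes), and 3 fell and 2 rose without vehicle replicate 1. Btg2, an antiproliferative gene, fell (-1.08 ± 0.26), Gadd45a, a DNA damage response gene, rose (1.13 ± 0.28), and Mdm2, which targets p53 for degradation, was not called (-0.32, adjusted p = 0.0522).

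The cell division list had 28 genes, of which 18 passed the filter, and 3 rose and 2 fell (27.8%, near the share of all genes), while 3 rose and 1 fell without vehicle replicate 1 and 3 rose and 4 fell on TPM. Wee1, a kinase that holds cells before mitosis, rose from a median of 0.65 to 1.54 FPKM (1.49 ± 0.24), and Cdt1, which licenses replication origins, from 1.21 to 3.04 FPKM (1.44 ± 0.25), both without overlap. Cdc20, a mitotic activator, overlapped between the groups, at 0.08 to 0.49 and 0.24 to 1.97 FPKM (2.32 ± 0.57, adjusted p = 0.00362). The proliferation marker Mki67 stayed at or under 0.29 FPKM in all 12 libraries and was not tested. Hist1h4m, a histone H4 gene whose reads may be shared with near-identical copies, had 22 counts over the vehicle libraries and 0 with ethanol. Against a floor of 3 counts over the group it was at least 7.6-fold lower.

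Targets of the glucocorticoid receptor fell together. Of 16 tested, 13 fell and none rose, with a median log2 change of -1.21. Without vehicle replicate 1 the count was 12 and the median -1.0, and with the trend with gene length removed 12 fell and 1 rose. Zbtb16, a transcription factor strongly induced by glucocorticoids, was at 9.0 to 17.0 FPKM with vehicle (median 13.1) and 0.47 to 4.43 FPKM with ethanol (median 0.875). Ethanol replicate 4 was the highest of its group and still below every vehicle library, and the log2 change was -3.26 ± 0.34. Tsc22d3, which encodes the anti-inflammatory protein GILZ, fell from a median of 113 FPKM (80.6 to 146) to 18.8 FPKM (13.3 to 46.1), a change of -2.08 ± 0.24. Tat, tyrosine aminotransferase, the classical hepatic target, fell from a median of 1272 to 604 FPKM (-1.01 ± 0.13), and Errfi1, an inhibitor of the EGF receptor, from 403 to 221 FPKM (-0.87 ± 0.16), both without overlap. Ddit4, an inhibitor of mTORC1 signalling, changed by -1.8 ± 0.22 and Dusp1, a MAP kinase phosphatase, by -1.41 ± 0.27. The receptor gene itself, Nr3c1, was not called, at 8.05 to 10.5 and 7.51 to 10.7 FPKM (0.03 ± 0.08, adjusted p = 0.803). Fkbp5, a further well known target, was not called either (-0.33, adjusted p = 0.199). Mt2, a metallothionein, was scattered, at 9.89 to 337 and 8.34 to 77.2 FPKM (-2.06 ± 0.57, adjusted p = 0.00946), and Mt1 was not called (-0.42, adjusted p = 0.445).

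Acute phase and immediate early genes gave falls with a wide spread between vehicle libraries. Of 26 acute phase genes 9 fell and none rose (7 without vehicle replicate 1), with a median of -0.25. Saa2, serum amyloid A, ran from 15.1 to 2049 FPKM with vehicle and from 20.7 to 174 FPKM with ethanol. The groups overlapped widely. Vehicle replicates 1 to 3 held 349.9 to 2049 FPKM, and replicates 4 to 6 held 15.1 to 36.0 FPKM, below the ethanol median of 60.7. Saa1 (415 to 2869.6 and 36.9 to 59.6 FPKM) and Lcn2 (17.4 to 181 and 3.76 to 5.5 FPKM) split between the same vehicle replicates. The log2 change of Saa2, -3.24 ± 0.93 (adjusted p = 0.0119), was not called by limma on log2(FPKM + 1), and it was -2.65 without vehicle replicate 1. Saa1 (-2.59 ± 0.83, adjusted p = 0.0218) was not called without vehicle replicate 1 (adjusted p = 0.056) or 2, nor Lcn2, lipocalin-2 (-2.73 ± 0.87), without vehicle replicate 2. Saa3 (-2.06 ± 0.54) and the interleukin-6 receptor gene Il6ra (-0.94 ± 0.2, without overlap) kept their calls without any single library. Haptoglobin (Hp, -0.19, adjusted p = 0.576) was not called. Of 18 immediate early genes 6 fell and none rose, and 3 fell without vehicle replicate 1. Egr1, a transcription factor switched on within minutes of a stimulus, was at 6.91 to 48.9 FPKM with vehicle (median 35.7) and 1.74 to 14.9 FPKM with ethanol (median 3.06), a change of -2.63 ± 0.54 with overlap through ethanol replicate 3. Jun (-0.92 ± 0.31) was not called without any of 6 single libraries (vehicle 1 or 2, ethanol 1, 2, 5 or 6), with adjusted p = 0.0825 without vehicle replicate 1.

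Genes of glucose production were lower more often than higher. In the gluconeogenesis and fasting list, 10 of 19 members fell and 4 rose (median -0.57), and 8 fell and 2 rose without vehicle replicate 1. G6pc, the last enzyme of glucose output, ran from 145 to 241 FPKM with vehicle (median 219) and from 40.1 to 89.1 FPKM with ethanol (median 60.4). The groups were separate, with a log2 change of -1.7 ± 0.2. Pck1, which makes phosphoenolpyruvate, was at 1154 to 1615 FPKM with vehicle and 459.8 to 1102 FPKM with ethanol (-0.77 ± 0.19), also without overlap but closer. The regulators Foxo1 (from a median of 11.7 to 6.87 FPKM, -0.7 ± 0.1) and Ppargc1a (2.34 to 1.04 FPKM, -1.04 ± 0.19), both activators of this programme, fell without overlap. Igfbp1, an insulin-repressed binding protein, fell by 2.28 ± 0.46 on the log2 scale. The change of Pdk4, which limits glucose oxidation, rested on vehicle replicate 1 at 34.7 FPKM (-2.07 ± 0.57 with all libraries, -0.68 and adjusted p = 0.146 without it), and the call of Irs2, an insulin receptor substrate (-1.14), was lost without any of 5 single libraries (vehicle 1 or 3, ethanol 1, 3 or 6), at -0.79 and adjusted p = 0.111 without vehicle replicate 1. Sds, serine dehydratase, which feeds pyruvate into the pathway, rose by 0.56 ± 0.14.

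3 targeting subunits that bring protein phosphatase 1 to glycogen, and so favour glycogen synthesis, fell as well. Ppp1r3g was at 1.16 to 6.43 FPKM with vehicle (median 2.26) and 0.06 to 0.35 FPKM with ethanol (median 0.18), a change of -3.89 ± 0.57 without overlap. Ppp1r3b moved from a median of 103 to 25.9 FPKM (-1.53 ± 0.26), with 1 ethanol library at 76.9 FPKM inside the vehicle range, and Ppp1r3c from 47.4 to 18.6 FPKM (-1.15 ± 0.21) without overlap. In the whole list of 24 glycolysis and glycogen genes 6 fell and 2 rose, and 8 and 2 without vehicle replicate 1. Pfkfb3, which makes the glycolytic activator fructose 2,6-bisphosphate, fell by 1.58 ± 0.3 on the log2 scale. Liver pyruvate kinase (Pklr, -0.12, adjusted p = 0.555) was not called.

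Lpin1, listed with gluconeogenesis and fasting, encodes a phosphatidate phosphatase that makes diacylglycerol. It was at 52.0 to 94.2 FPKM with vehicle (median 74.9) and 5.93 to 14.1 FPKM with ethanol (median 10.2). The groups were well apart, with a log2 change of -2.79 ± 0.21 (adjusted p = 1.14e-09). Its relative Lpin2 fell by 1.19 ± 0.13 on the log2 scale. Of 26 genes of fatty acid and triglyceride synthesis 10 fell and 2 rose (median -0.31), and 6 fell and 4 rose with the length trend removed. Acly, which supplies cytosolic acetyl-CoA, moved from a median of 85.2 to 53.2 FPKM without overlap (-0.9 ± 0.21). Srebf1, the gene of the lipogenic factor SREBP-1, rose from a median of 52.3 to 103 FPKM (0.86 ± 0.2) with overlap. Fasn (-0.32, adjusted p = 0.42), Acaca (-0.33, adjusted p = 0.133) and Scd1 (0.01, adjusted p = 0.972) were not called. Thrsp (-1.06, adjusted p = 0.0121) and Pnpla3 (-2.62, adjusted p = 0.00557) were called lower, both with overlap. The call of Thrsp was lost without vehicle replicate 2, and that of Pnpla3 with limma on log2(FPKM + 1). Insig2, which retains SREBP in the endoplasmic reticulum, changed by -0.67 ± 0.11.

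Of 25 genes of lipid droplets, lipases and lipid uptake 7 fell and 4 rose, and 4 and 3 without vehicle replicate 1. Angptl4, an inhibitor of lipoprotein lipase, fell from a median of 95.8 FPKM (59.9 to 127) to 21.0 FPKM (13.8 to 37.2), a change of -2.05 ± 0.3. The droplet coat genes Plin2 (median 288 to 191 FPKM, -0.48 ± 0.1) and Plin4 (4.59 to 0.91 FPKM, -2.3 ± 0.5) fell without overlap. Lipe, hormone-sensitive lipase, rose from 2.98 to 4.97 FPKM (median 4.14) to 6.83 to 9.18 FPKM (median 8.62), and Pnpla2, adipose triglyceride lipase, from a median of 29.0 to 45.7 FPKM. Their log2 changes were 1.06 ± 0.13 and 0.7 ± 0.12, and neither overlapped. The falls of Lpl, Cd36 and Vldlr, which take up lipid, depended on vehicle replicate 1, which had 73.5, 22.0 and 2.61 FPKM. Without it their changes were 0.12, -0.4 and -0.55, none of them called. Ppard, the gene of the nuclear receptor PPARdelta, fell from a median of 13.6 FPKM (11.9 to 18.6) to 2.21 FPKM (1.46 to 3.59), a change of -2.53 ± 0.23, while Ppara was not called (0.05 ± 0.12). Of 25 genes of mitochondrial fatty acid oxidation 6 rose and 2 fell by small amounts, such as Acads (0.35), 3 rose and 2 fell without vehicle replicate 1, and on TPM none rose and 5 fell. The carnitine transferase gene Cpt1a was not called (0.29, adjusted p = 0.0611). In cholesterol synthesis and uptake 2 of 26 rose and 1 fell, under the background, and 2 fell without vehicle replicate 1 and 3 on TPM. Tm7sf2, a sterol reductase gene, rose by 0.50 ± 0.10.

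**Figure D3:**
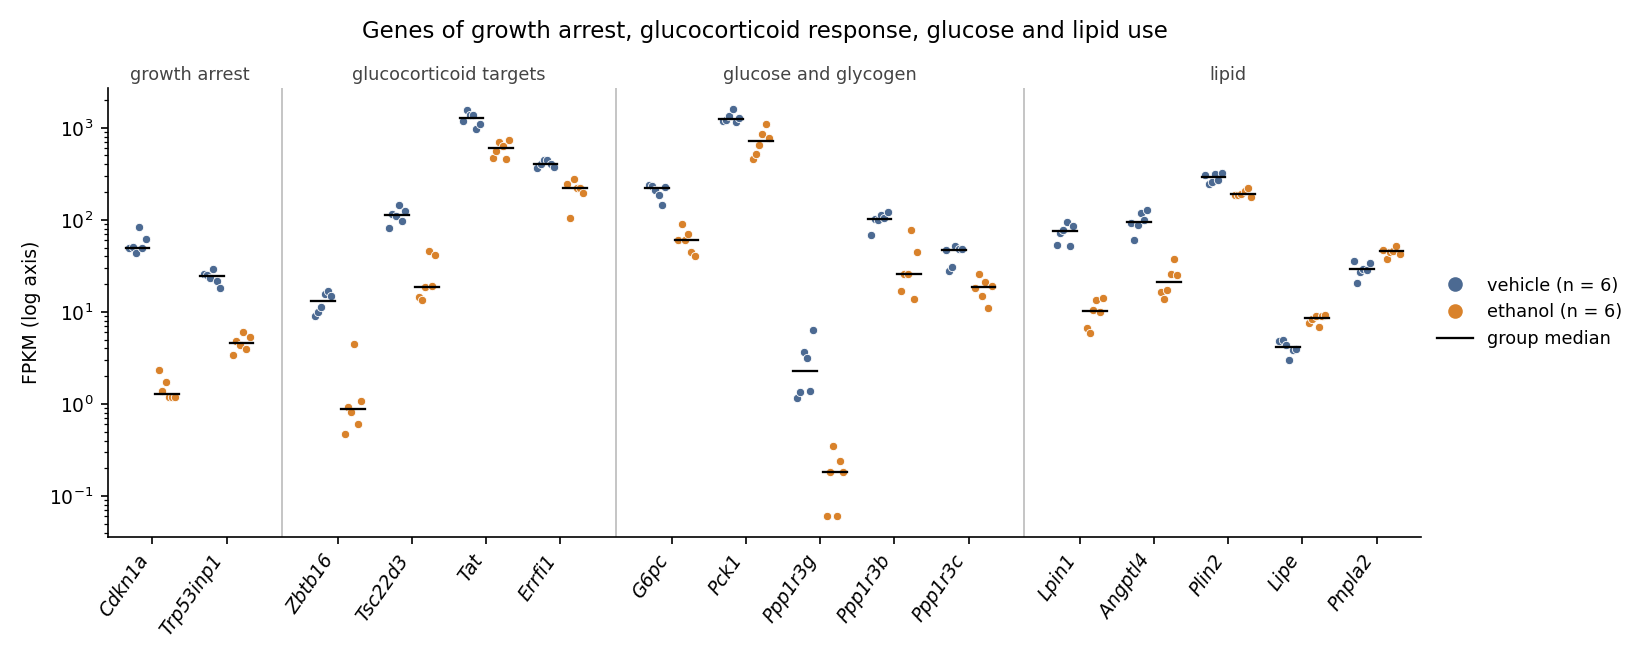
FPKM on a log axis of 16 genes of growth arrest, glucocorticoid response, glucose and glycogen, and lipid metabolism in 6 vehicle (blue) and 6 ethanol (orange) libraries, with group medians as black lines. Lipe and Pnpla2 are higher with ethanol and the other 14 lower, and the groups overlap for Ppp1r3b alone.

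Few of the enzymes that oxidise ethanol were called. Of 15 tested, 2 rose and 1 fell, 20% against 28.8% of all genes. Without vehicle replicate 1 the balance turned to 1 risen and 2 fallen, and on TPM to none and 2. Adh1, the main hepatic alcohol dehydrogenase, was at 1143 to 1761 FPKM with vehicle (median 1606) and 1338 to 1647 FPKM with ethanol (median 1428), a change of -0.02 ± 0.13 (adjusted p = 0.941). Cyp2e1 rose by 0.42 ± 0.12 (adjusted p = 0.0102), from a median of 2771 FPKM (2261 to 3787) to 3614 FPKM (3174 to 4117), with overlap, and was not called on TPM. Aldh2 moved from a median of 1022 to 1160.4 FPKM (0.26 ± 0.09, adjusted p = 0.0337), and its call was lost without any of 7 single libraries (vehicle 1, 2 or 3, ethanol 1, 3, 5 or 6), at 0.2 and adjusted p = 0.0967 without vehicle replicate 1. Adh7, expressed at about 1 FPKM, fell by 0.81 ± 0.22 on the log2 scale, with the groups apart at 1.1 to 2.58 and 0.6 to 1.09 FPKM. Peroxisomal catalase (Cat, 0.13, adjusted p = 0.228), Adh4 (-0.12, adjusted p = 0.446), Aldh1b1 (0.1, adjusted p = 0.699) and the acetate-activating gene Acss2 (-0.28, adjusted p = 0.296) were not called. Its relative Acss3 (-0.43, adjusted p = 0.122) was called only without vehicle replicate 1 (-0.56, adjusted p = 0.0494).

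Among other detoxification genes the balance of higher and lower depended on vehicle replicate 1 and on scaling. Of 34 NRF2 and glutathione genes 11 rose and none fell (median 0.12), 8 rose and 2 fell without vehicle replicate 1, and on TPM 4 rose and 3 fell with a median of -0.06. Gstp1, a glutathione transferase, rose from a median of 3596 to 5829 FPKM (0.68 ± 0.17), and the peroxiredoxin gene Prdx5 by 0.38. Among 31 cytochrome P450 genes and regulators 7 rose and 3 fell (median 0.03), 4 rose and 4 fell without vehicle replicate 1, and on TPM 2 rose and 4 fell with a median of -0.1. Cyp2u1 rose from 4.86 to 6.87 FPKM (median 6.07) to 8.24 to 18.6 FPKM (median 11.5), a change of 1.06 ± 0.18 without overlap. Por, the reductase that serves all microsomal P450 enzymes, rose by 0.61 ± 0.14, and the receptor PXR (Nr1i2), which senses foreign compounds, fell by 0.64 ± 0.1 on the log2 scale. Of 31 conjugation and carboxylesterase genes 4 rose and none fell, a share called of 12.9%. Without vehicle replicate 1 these counts were 3 and 2, and on TPM 2 and 4. In bile acid synthesis and transport 7 of 22 rose and 2 fell, 5 rose and 3 fell without vehicle replicate 1, and on TPM 3 rose and 4 fell. Cyp7a1, the rate-limiting enzyme, rose by 1.46 ± 0.35 with overlapping groups (6.95 to 21.2 and 13.8 to 67.3 FPKM), while Nr0b2 (SHP), which represses it, fell by 0.78 ± 0.2 on the log2 scale. Klb, the coreceptor that conveys the intestinal signal against bile acid synthesis, rose by 0.78 ± 0.14.

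Of 22 heat shock chaperones 11 fell and none rose, also without vehicle replicate 1, with a median of -0.4 (-0.27 without that library). Hsp90aa1, inducible HSP90, was at 64.8 to 139 FPKM with vehicle (median 87.1) and 39.9 to 51.1 FPKM with ethanol (median 43.5), a change of -1.06 ± 0.19. Hspa1b (-1.28 ± 0.17), whose reads and those of the nearly identical Hspa1a may be mixed, and Hsph1 (-1.09 ± 0.2) fell as well. The groups of these 3 genes were separate. Of 25 chaperones of the endoplasmic reticulum 8 fell and 1 rose (6 and 2 without vehicle replicate 1), led by Herpud1, a degradation factor (median 304 to 142 FPKM, -0.99 ± 0.16), and Hspa5, the chaperone BiP (404 to 229 FPKM, -0.83 ± 0.2). Trib3, a pseudokinase of the integrated stress response, rose from a median of 3.33 to 9.03 FPKM (1.45 ± 0.24) without overlap. That list had 4 risen and 3 fallen of 20, 4 and 1 without vehicle replicate 1, and 3 and 3 on TPM.

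The autophagy and lysosome list had 14 of 28 members higher and 2 lower, with a median of 0.19. Without vehicle replicate 1 the counts were 12 and 2, and on TPM 3 and 5 with a median of 0.01. Gabarapl1, an ATG8 protein of the autophagosome membrane, was at 119 to 239 FPKM with vehicle (median 202) and 261 to 294 FPKM with ethanol (median 283), a change of 0.68 ± 0.14 without overlap. Atg2a, a lipid transfer protein, rose by 0.52 ± 0.11, the mitophagy receptor gene Bnip3 by 0.44 and Tfeb, the master factor of lysosomal genes, by 0.56 ± 0.17.

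Among secreted proteins, 10 of 31 apolipoprotein and carrier genes rose and 1 fell (median 0.24), 6 rose without vehicle replicate 1, 2 rose and 2 fell on TPM, and 2 rose and none fell with the length trend removed. Apoa1, the main protein of HDL, moved from a median of 10827 to 13332 FPKM without overlap (0.44 ± 0.13), a call lost with the length trend removed. Albumin (Alb, -0.12, adjusted p = 0.457) was not called. Of 34 complement and coagulation genes 5 rose and 4 fell (26.5%, near the 28.8% of all genes), 4 and 4 without vehicle replicate 1, and none and 5 on TPM. In iron handling 5 of 21 rose (3 without vehicle replicate 1) and 2 fell, and on TPM the balance turned to 2 risen and 5 fallen. Tfrc, the transferrin receptor, fell from a median of 6.49 FPKM (3.27 to 8.56) to 1.98 FPKM (1.25 to 2.99), a change of -1.52 ± 0.3, and Slc40a1, the iron exporter ferroportin, rose by 0.82 ± 0.13. Hamp, which encodes the iron hormone hepcidin, was not called (-0.15, adjusted p = 0.752). In the growth hormone axis 4 of 20 rose and 3 fell (4 and 4 on TPM). Cish, a feedback inhibitor induced by growth hormone, ranged from 1.0 to 3.38 FPKM with vehicle and from 1.2 to 23.1 FPKM with ethanol (2.29 ± 0.55, adjusted p = 0.00356), Igfals, the acid-labile subunit of circulating IGF complexes, rose by 0.77 ± 0.11 without overlap, and Igf1 was not called (-0.1, adjusted p = 0.531).

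Of 20 pericentral hepatocyte genes, those near the central vein, 8 rose and none fell (median 0.3, 6 without vehicle replicate 1, and 3 on TPM). Several are Wnt targets. Rnf43, a ligase that dampens Wnt signalling, rose from a median of 2.87 FPKM (1.69 to 4.48) to 6.79 FPKM (4.91 to 9.77), a change of 1.29 ± 0.2, and Sp5, a Wnt-induced factor, by 1.25 ± 0.27. Glul, glutamine synthetase, rose by 0.31 ± 0.1 and was not called on TPM. Axin2, a widely used Wnt target, was not called (0.12, adjusted p = 0.678). Of 20 periportal genes 4 rose and 4 fell, 4 and 7 without vehicle replicate 1, and 2 and 6 on TPM. In urea cycle and amino acid catabolism 7 of 38 rose and 7 fell, but 5 and 8 without vehicle replicate 1, 4 and 10 with library totals, and 3 and 14 on TPM. Cps1, the entry enzyme of the urea cycle, moved from a median of 875 to 659 FPKM (-0.37 ± 0.11), a call lost with the length trend removed. In the methionine and one-carbon list 4 of 23 fell and 1 rose (4 and none without vehicle replicate 1, 7 and none on TPM). The share called was 21.7%, against 28.8% of all genes.

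Hepatocyte transcription factors and receptors moved both ways. Of 29 factors 8 rose and 7 fell, also without vehicle replicate 1, but 3 rose and 8 fell on TPM. The C/EBP family split, with Cebpa, which maintains hepatocyte identity, at 133 to 176 FPKM with vehicle (median 152) and 275 to 324 FPKM with ethanol (median 296), a rise of 1.02 ± 0.1. Its relatives of the acute phase response fell, Cebpb from a median of 193 to 92.3 FPKM (-0.94 ± 0.2) and Cebpd from 6.39 to 2.5 FPKM (-1.38 ± 0.24). The groups of all 3 genes were separate. Hnf4a was not called (-0.21, adjusted p = 0.0869), although its FPKM ranges, 132 to 167 with ethanol and 167 to 196 with vehicle, did not overlap. Of 26 receptors 9 fell and 5 rose, 8 and 5 without vehicle replicate 1, and 5 fell and 8 rose with the length trend removed. The interleukin-1 receptor gene Il1r1 fell from a median of 17.7 FPKM (11.8 to 23.1) to 6.54 FPKM (5.56 to 7.43), a change of -1.42 ± 0.16, and the oestrogen receptor gene Esr1 from 2.97 to 1.33 FPKM (-1.3 ± 0.21). The insulin receptor gene Insr changed by -0.4 ± 0.09, a call lost with the length trend removed. Of 22 inflammation genes 1 rose and 4 fell (2 and 1 without vehicle replicate 1). Of 28 interferon-stimulated genes 1 rose and 5 fell (1 and 3 without vehicle replicate 1). Of 23 hepatokine genes 4 rose and 3 fell (3 and 3 without vehicle replicate 1, none and 4 on TPM). The shares called in these lists were 22.7%, 21.4% and 30.4%, against 28.8% of all genes.

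Several other genes with no list were among the largest changes. Clec2h, a lectin-like gene, rose from a median of 1.86 to 9.17 FPKM (2.31 ± 0.42), and Klhdc7a from 2.7 to 6.86 FPKM (1.46 ± 0.14), both without overlap. Pitx3, a homeobox factor best known from dopamine neurons and the lens, fell from a median of 15.7 FPKM (5.66 to 20.9) to 2.31 FPKM (1.07 to 4.22), a change of -2.58 ± 0.36. Meg3, a maternally expressed long noncoding RNA, fell from 1.96 to 0.14 FPKM (-2.49 ± 0.56). It passed the filter through vehicle and combination libraries alone, being at most 0.45 FPKM with ethanol and 0.4 FPKM with DEHP. Fitted without the filter it was called as well (adjusted p = 0.00585). Loxl4, a collagen crosslinking enzyme, fell from 3.98 to 0.565 FPKM (-2.4 ± 0.37). Its vehicle libraries split, with replicates 1 to 3 at 5.73 to 6.34 FPKM and replicates 4 to 6 at 2.11 to 2.23 FPKM. Chrna4, a nicotinic receptor subunit, overlapped between the groups, at 1.07 to 11.5 and 0.51 to 1.36 FPKM (-2.4 ± 0.6, adjusted p = 0.00495). Vehicle replicates 2 and 3 held 11.5 and 10.7 FPKM and the other vehicle libraries 1.07 to 1.71 FPKM. Its call was lost with limma on log2(FPKM + 1).

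Markers of other liver cells were read beside these results, and in whole liver fewer cells of a type and less RNA per cell cannot be told apart. Of 21 endothelial markers 9 fell and none rose (median -0.55, and 7 with a median of -0.41 without vehicle replicate 1). Their summed FPKM ran from 142 to 275 with vehicle and from 122 to 164 with ethanol. Bmp2, which sinusoidal endothelium sends to hepatocytes to control iron, fell from a median of 3.29 FPKM (2.28 to 5.11) to 1.46 FPKM (1.11 to 1.97), a change of -1.11 ± 0.21. Ehd3 (-0.69 ± 0.15) also fell without overlap, and Stab2 was not called (-0.29, adjusted p = 0.071). Of 20 stellate and fibroblast markers 5 fell and none rose (25% called, against 28.8% of all genes). Without vehicle replicate 1, whose markers summed to 392 FPKM against 165 to 221 in the other vehicle libraries, 3 fell and 1 rose. Des fell by 3.79 with all libraries and changed by 0.01 without it. Of 18 Kupffer and macrophage markers 1 rose and 2 fell (1 and none without vehicle replicate 1), a share called of 16.7%. Their sums were 188 to 515 and 219 to 379 FPKM, and Clec4f, specific to Kupffer cells, was not called (-0.11, adjusted p = 0.684). Of 7 cholangiocyte markers 3 fell and 1 rose, and of 7 lymphocyte and neutrophil markers 1 fell (none without vehicle replicate 1). No tested marker of adipocytes (6), pancreatic acini (2) or erythroid cells (5) was called. Of 12 hepatocyte markers 4 rose and 2 fell (1 and 4 on TPM), with sums of 60228 to 82614 and 69524 to 85014 FPKM, none at 0 in any group. The part of these shifts in the other gene lists was not tested.

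**Figure D4:**
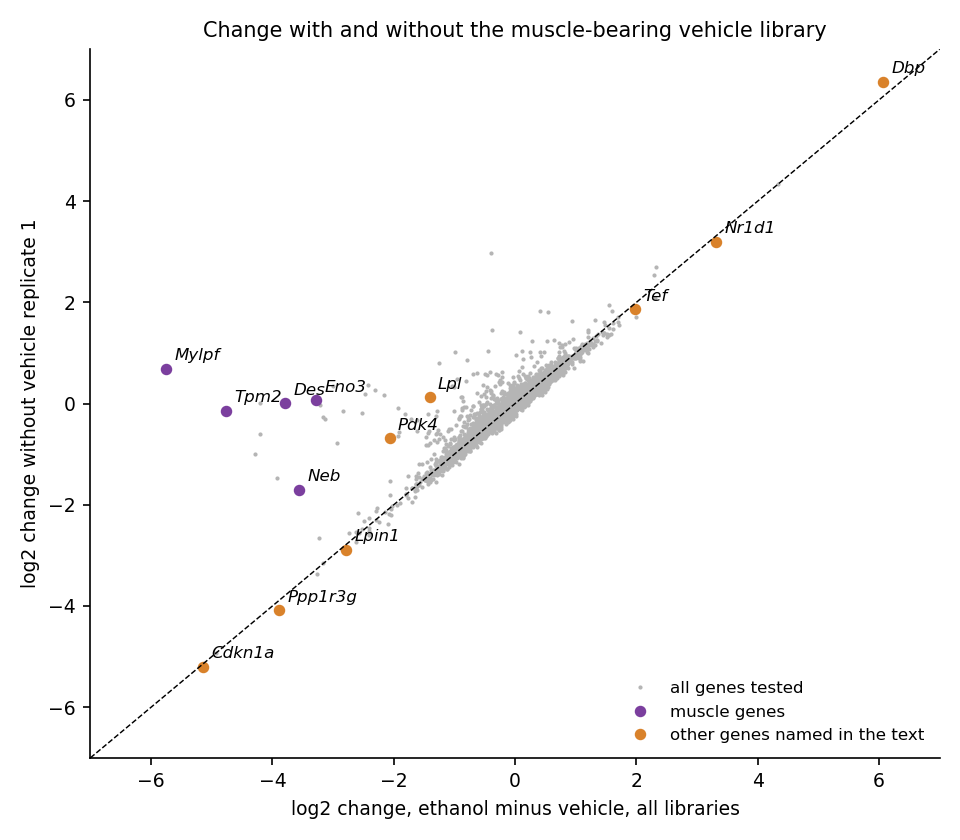
Log2 change with ethanol for the 10697 tested genes (grey), with all libraries (horizontal axis) and without vehicle replicate 1 (vertical axis), and a dashed line of equality. Muscle genes (purple), such as Mylpf at -5.75 and 0.69, and Lpl and Pdk4 leave the line, while Dbp, Nr1d1, Tef, Cdkn1a, Lpin1 and Ppp1r3g stay close to it.

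The same ethanol dose was also given with DEHP, in libraries that the ethanol and vehicle groups do not share. Between the combination and DEHP alone 13 of 10697 genes were called (0.122%), against 28.8% between ethanol and vehicle. The difference between the 2 ethanol changes, tested directly, was called for 686 genes (6.41%). The labels give no hour of collection or feeding state for any group and name CMC for vehicle alone. If these differed between groups, such a difference and an effect of DEHP on the ethanol change cannot be told apart. Combination replicate 6 also held muscle transcripts, with 6471 FPKM summed over the 20 markers against 7.49 to 13.9 in the other 5 combination libraries and 11.6 to 14.5 with DEHP. All 4 tested muscle markers were among the 686, such as Mylpf (difference 11.55, adjusted p = 0.0114). Without this library and vehicle replicate 1 none of the 4 was called (Mylpf -0.75, adjusted p = 0.567), the difference was called for 488 genes, 432 of them in both fits in the same direction, and 21 genes were called between the combination and DEHP. For the 8 largest rises and the 8 largest falls of the comparison without DEHP, 11 of the 16 differences were called, and 10 of these without both libraries, where Clec2h had an adjusted p of 0.0501. These genes were chosen by their change without DEHP, which is itself a term of the difference. The choice alone raises the share called, so this count is no evidence beyond the 6.41% of all genes. Dbp was at 0.65 to 1.94 FPKM with DEHP (median 1.52) and 1.21 to 6.88 FPKM with the combination (median 1.54), so that its change was 1.14 with DEHP against 6.06 without (difference -4.92, adjusted p = 0.000131). Cdkn1a was at 20.7 to 36.8 FPKM with DEHP and 16.8 to 25.9 FPKM with the combination, and its change was -0.49 against -5.15 (difference 4.65, adjusted p = 1.36e-11). Lpin1 changed by -0.01 against -2.79 (difference 2.78, adjusted p = 1.74e-06). Cish changed by 2.09 with DEHP, which was not called (adjusted p = 0.197), and by 2.29 without. The difference of -0.2 was not called (adjusted p = 0.912). Trp53inp1 was among the 13 genes called with DEHP (-0.72, adjusted p = 0.0236, against -2.3 without).

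**Figure D5:**
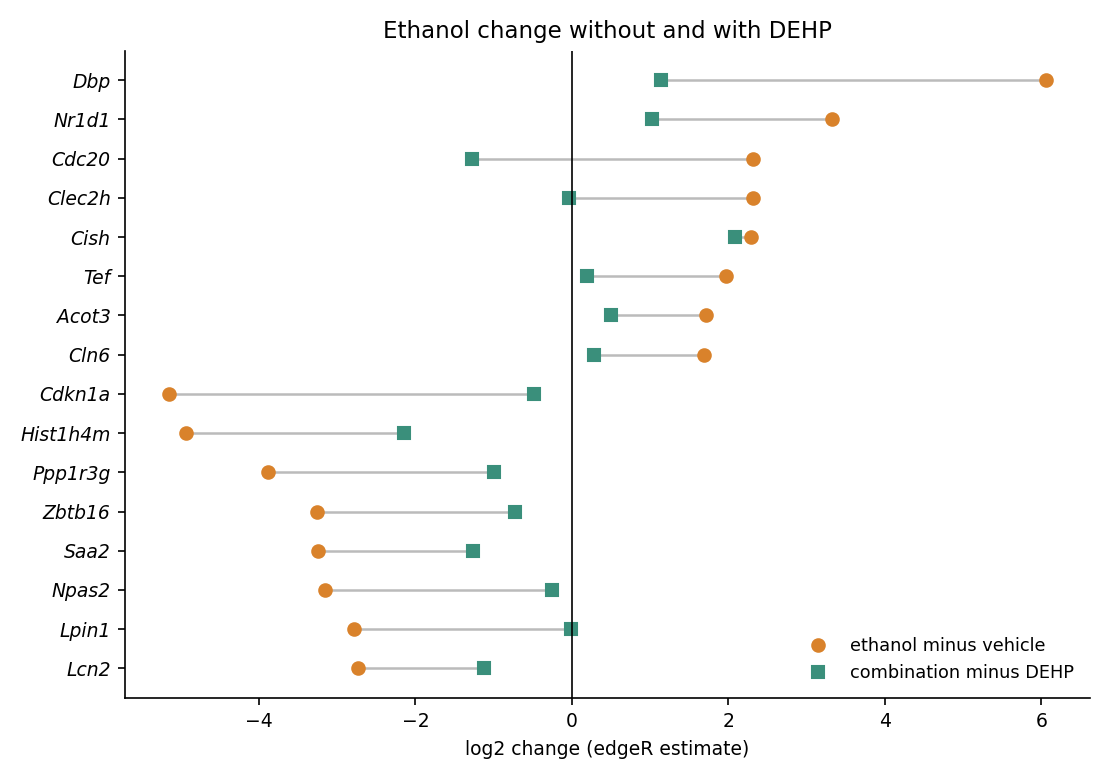
Log2 change with ethanol for the 8 largest rises and the 8 largest falls of the comparison without DEHP (orange circles) and the change of the same genes from DEHP to the combination (green squares). The genes were chosen by their change without DEHP. Cish has nearly the same value in both, though its change with DEHP was not called, and Dbp and Cdkn1a lie farthest apart.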

How the data were processed

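RNA sequencing of mouse liver gave 1 table per library, each assigned to its group by its title. Per the file headers, the authors deposited an expected count (reads estimated per gene, not normalised) and an FPKM value (that count scaled to transcript length and library size). The submitters' processing notes name Cuffdiff and the builds mm10 and GRCm38. For aligner, strand use and filters the sources used here give nothing. Genes missing from a table were set to 0. Mitochondrially encoded genes were not analysed here.

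The quasi-likelihood F test of edgeR 4.0.16 under R 4.3.3 was run on rounded expected counts, with TMM factors and the 4 groups as the only term, which left 20 residual degrees of freedom. Each SE is the size of the unshrunken change over the root of its F statistic. DESeq2 1.42.0, limma 3.58.1 on log2(FPKM + 1), log2(FPKM + 0.1) and log2(TPM + 1), other scalings and filters, a replicate block, removal of the length trend and leaving out libraries were alternatives. The scripts were tested on simulated data. The closest replicates differed by more than sampling noise, so each library counted as 1 sample. Equal replicate numbers did not pair the libraries. Total counts of 7510462 to 7912089 limit what can be said of genes near 1 FPKM.

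The rule for named genes took the 15 largest rises and falls called with and without vehicle replicate 1 (mean of at least 1 FPKM in either group, predicted genes passed over), up to 4 called members of each list with at least 3 called, all tested clock and ethanol oxidation genes and 25 fixed genes. Some of the genes it names are not reported here. Picked after their values were seen were Ciart, Bhlhe41, Per3, Mdm2, Mki67, Errfi1, Nr3c1, Fkbp5, Hp, Ppargc1a, Pdk4, Irs2, Pklr, Acly, Acaca, Scd1, Thrsp, Pnpla3, Plin4, Lpl, Cd36, Vldlr, Nr0b2, Tfeb, Igf1, Axin2, Insr, Klhdc7a, Stab2, Des, Clec4f. The comparison, the members and the gene lists were chosen with earlier results of these data known, so no count over a list is independent evidence.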

Additional observations from a re-analysis of the deposited data

Results flagged for a closer look

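In 27 of 302 group values checked (151 genes in 2 groups of 6), 1 library lay so far from the rest that its gap to the nearest value exceeded 0.625 of the group's range (Dixon's test). For independent, normally distributed values the test would flag about 1 in 20. Some of the genes checked were picked after their values were seen, and genes vary together, so the count cannot be compared with that rate. Vehicle replicate 1 was the library in 10 of the 27, which include the muscle genes and the lipid uptake genes, and its muscle transcripts are described in the report. Its values were 34.7 FPKM for Pdk4, 73.5 for Lpl, 22.0 for Cd36, 2.61 for Vldlr, 42.2 for Neb, 176 for Tpm2, 140.0 for Eno3, 1775 for Acta1, 518 for Mylpf and 119 for Des.

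The other vehicle values were Npas2 at 2.8 FPKM in replicate 6, Cry1 at 11.3 in replicate 5, Per3 at 0.09 in replicate 2, Lepr at 1.0 in replicate 6 and Vcam1 at 5.26 in replicate 3. In ethanol replicate 4, Zbtb16 stood at 4.43 FPKM, Scd1 at 1919, Cpt1a at 108, Ppara at 41.5, Cyp2u1 at 18.6 and Hsph1 at 12.2, each the highest of its group. The remaining ethanol values were Mki67 at 0.23 FPKM in replicate 1, Loxl4 at 1.7 in replicate 2, Egr1 at 14.9 in replicate 3, Nr1i2 at 25.8 and Socs2 at 21.9 in replicate 5, and Thrsp at 217 in replicate 6.

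For 11 of the 16 genes with the largest ethanol changes, the change with DEHP minus the change without it was itself called in edgeR. The share over all genes was 6.41%, and choosing genes by a large change without DEHP raises the share called. Among rises it was -4.92 for Dbp, -2.3 for Nr1d1, -3.6 for Cdc20, -2.34 for Clec2h, -1.77 for Tef and -1.41 for Cln6. Among falls it was 4.65 for Cdkn1a, 2.89 for Ppp1r3g, 2.53 for Zbtb16, 2.91 for Npas2 and 2.78 for Lpin1. That of Clec2h was not called without both libraries with muscle transcripts (-2.17, adjusted p = 0.0501).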

How the results depend on the processing

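The counts of genes higher (1524) and lower (1555) moved by more than 1.5 times under 2 alternatives. Library totals only gave 930 higher, and limma on log2(TPM + 1) gave 481 higher and 2764 lower, with all genes shifted by -0.15. Leaving out 1 library gave 1188 to 1644 higher and 1210 to 1671 lower. A replicate block gave 1431 and 1499. Same-numbered vehicle and ethanol libraries shared little (r of deviations from -0.07 to 0.08, and 1 of 6 best with its own number), so the numbers were not read as pairs. Of 201 called genes followed, DESeq2 size factors kept all 201 and the replicate block 190. Without vehicle replicate 1, 20 lost their call and 4 changed sign: Des (0.01), Eno3 (0.07), Lpl (0.12) and Mylpf (0.69). Their ranges with 1 library left out were -4.04 to 0.01, -3.52 to 0.07, -1.61 to 0.12 and -6.01 to 0.69. Without both libraries with muscle transcripts (vehicle replicate 1 and combination replicate 6) these were 0.01, 0.07, 0.11 and 0.69. In an alternative chosen after seeing the data, leaving out both gave 21 genes between the combination and DEHP (13 with all libraries) and 488 for the difference of the ethanol changes (686). Limma on log2(TPM + 1) lost 36, removal of the length trend 20, and limma on log2(FPKM + 1) 19, without a change of sign. Depth limits genes near 1 FPKM, such as Cdc20, Wee1 and Meg3.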
